A study of Mus musculus with 6 samples.

Results

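The keratins of forelimb bud ectoderm were followed in mouse embryos that lack Sp8 and in wild-type embryos. Members were taken by name, as every gene whose symbol is Krt followed by a number and at most a letter a or b. This gave 53 of the 49452 genes in the table, 28 of type I, 24 of type II and Krt88, which was in neither list. RNA was measured at E10.5 in 6 libraries, 3 from Sp8 null embryos and 3 from wild-type embryos, and each library held the ectoderm of both forelimbs of 1 embryo. The null allele, called Sp8-Cre-ERT2 in the labels, was carried on both chromosomes of embryos bred from heterozygous parents, while wild-type embryos came from separate C57BL/6 matings, so the groups were not littermates. The background of all 6 embryos was labelled C57BL6J, and the ectoderm had been freed with trypsin and forceps. Values are FPKM, read fragments divided by transcript length and by library size, which allows levels to be compared between genes.

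Keratins are the intermediate filament proteins of epithelia. A filament is built from pairs of an acidic type I and a basic type II keratin, so an epithelium makes both kinds. Krt8 and Krt18, with Krt19 and Krt7, are the keratins of single-layered epithelia and of the early surface ectoderm. Krt5 with Krt14, and Krt15, mark the basal layer once the ectoderm is committed to become epidermis, and Krt17 is found in periderm, the flat cell layer that covers embryonic ectoderm, and in skin appendages.

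The libraries were first read for genotype and tissue. Sp8 itself ranged from 0.460 to 1.14 FPKM among null embryos and from 8.35 to 13.5 FPKM among wild-type embryos, so every library followed its label. All 12 surface epithelium markers other than keratins were expressed, and their summed level was 899 to 1170 FPKM in Sp8 null and 1075 to 1220 FPKM in wild type. All 6 periderm markers other than keratins were also past the filter, at a sum of 164 to 184 FPKM in Sp8 null and 137 to 164 FPKM in wild type. Limb mesenchyme markers summed to 77.3 to 179.8 FPKM in Sp8 null, highest in embryo 2, and to 81.5 to 118 FPKM in wild type, with 8 of 10 past the filter. Erythroid markers summed to 62.7 to 163 FPKM in Sp8 null and to 11.6 to 427 FPKM in wild type, highest in wild-type embryo 1, and 6 of 8 passed. Endothelial markers stayed at 4.35 FPKM or less in sum, with 1 of 6 past the filter, and the 6 macrophage markers at 0.694 or less, with none past it. No marker in these lists was at 0 in all 6 libraries. The part of other cell types in the keratin values was not tested, and in these bulk samples fewer cells of a type and less RNA per cell cannot be told apart.

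Of the 53 keratins, 11 passed the filter of at least 1 FPKM in at least 3 libraries: Krt5, Krt14 and Krt15 of the basal class, Krt8, Krt18, Krt19 and Krt7 of the simple class, Krt17, Krt9, Krt10 and Krt23. These 11 held 98.7% to 99.1% of the summed keratin FPKM of each library. Krt17 passed through the wild-type libraries alone, so it had to differ to be tested, and counts over the 11 are a description of those that passed. Another 24 keratins were above 0 in at least 1 library without passing, and 18 were listed at 0 in all 6.

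Summed over the family, keratin RNA overlapped between the genotypes, while the share of type II members did not. The sum was 203, 185 and 207 FPKM in Sp8 null embryos 1, 2 and 3, and 209.9, 193 and 187 FPKM in wild-type embryos 1, 2 and 3. Type II keratins made up 47.7%, 50.3% and 50.8% of it in Sp8 null and 53.5%, 53.5% and 56.7% in wild type, and these groups did not overlap. In FPKM the type II sums did overlap, at 97.0, 92.8 and 105.3 in Sp8 null and 112.3, 103.2 and 105.9 in wild type. The type I sums overlapped too. The ratio of type II to type I FPKM was 0.986 ± 0.0641 in Sp8 null and 1.204 ± 0.0917 in wild type (SD, n = 3 each). Krt5 alone carried 32.2% to 34.3% of keratin FPKM in Sp8 null and 38.0% to 43.6% in wild type. The simple class was at 42.9% to 50.8% in Sp8 null and at 38.5% to 45.9% in wild type, so for this class the groups overlapped, with Sp8 null embryo 2 the lowest of its group and wild-type embryo 2 the highest of its own. Sums and shares over the members are given without a test.

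**Figure D1:**
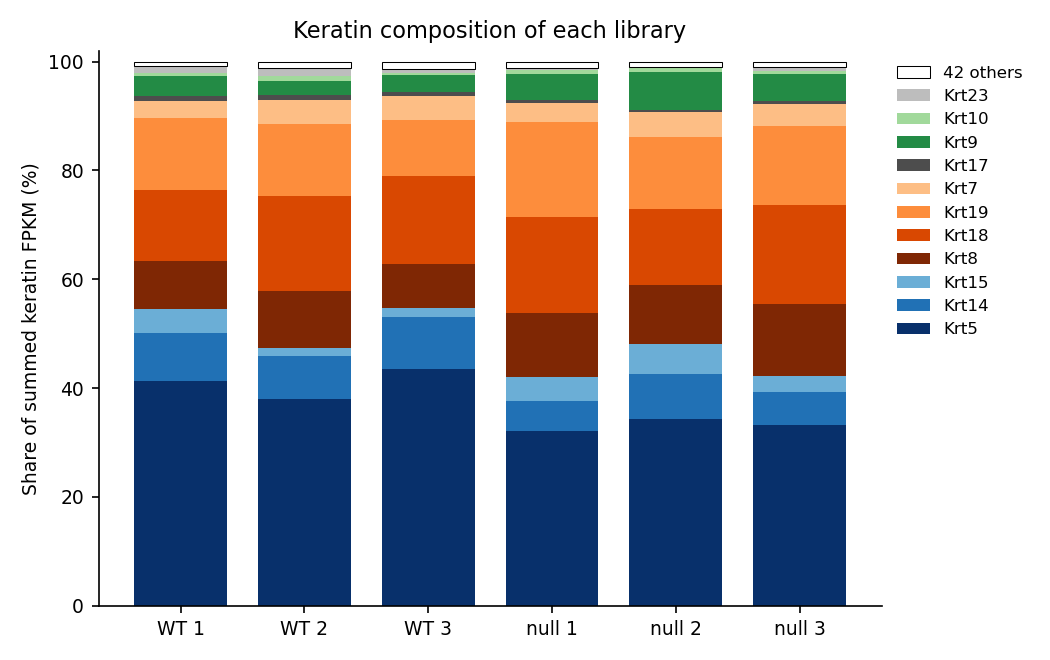
Share of the summed keratin FPKM (y axis, percent) taken by each of the 11 keratins that passed the filter and by the 42 others together, in each library (x axis). Krt5, at the bottom of each bar, takes 38.0% to 43.6% in wild type and 32.2% to 34.3% in Sp8 null.

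Krt9 was higher and Krt17 lower in Sp8 null ectoderm, and these were the only 2 of the 11 tested keratins called different by limma at a Benjamini-Hochberg adjusted p under 0.05 over all 12133 tested genes. The background share of genes called was 6.83%, with 1.68% higher and 5.15% lower. The split of all calls depended on scaling: 24.6% of calls were higher as deposited, 37.2% under median-of-ratios scaling and 41.7% under upper-quartile scaling. The median log2 fold change was 0.11 over the 11 keratins and -0.06 over all tested genes. In 5 of the 11 keratins the groups did not overlap, Krt9 higher and Krt5, Krt14, Krt17 and Krt23 lower, against 29.8% of all tested genes (8.63% higher and 21.1% lower). An unadjusted p under 0.05 in limma was reached by 6, the same 5 and Krt8, against 24% of all tested genes.

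**Figure D2:**
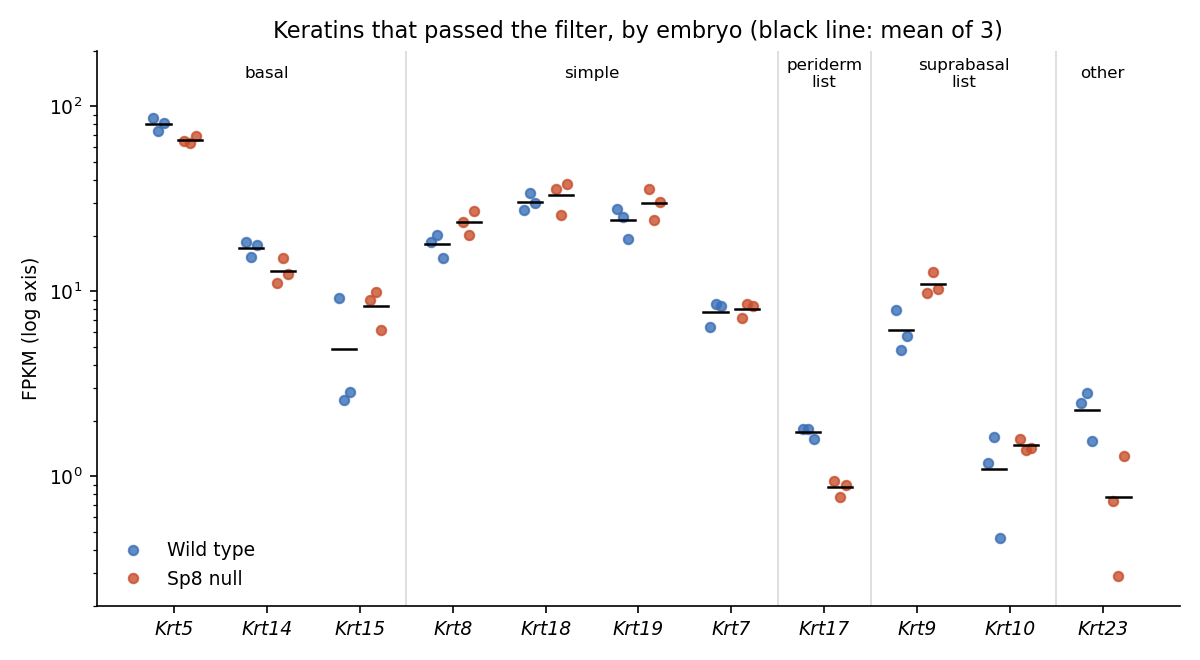
FPKM (y axis, log scale) of the 11 keratins that passed the filter, with 1 point per embryo, wild type in blue and Sp8 null in red, and a black line at each mean of 3. Groups are apart for Krt5, Krt14, Krt17, Krt9 and Krt23 and overlap for the others.

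The basal pair Krt5 and Krt14, the filament partners of the basal layer, were both lower in Sp8 null without passing the test. Krt5 (ENSMUSG00000061527; GRCm38, chromosome 15, 101707070 to 101712898, minus strand, protein-coding) was the most abundant keratin and stood at rank 630 of all genes by mean FPKM. It was at 65.4, 63.4 and 69.0 FPKM in Sp8 null embryos 1, 2 and 3 and at 86.5, 73.4 and 81.4 FPKM in wild type. Every null library was below every wild-type library, the nearest being Sp8 null embryo 3 and wild-type embryo 2. The log2 fold change was -0.28 (SE 0.08, 95% interval -0.46 to -0.10; limma adjusted p = 0.0800), with means of 65.9 ± 2.88 and 80.4 ± 6.63 FPKM (SD, n = 3). Krt14 (ENSMUSG00000045545; chromosome 11, 100203162 to 100207548, minus strand) was at 11.1, 15.2 and 12.4 FPKM in Sp8 null and at 18.5, 15.3 and 17.8 FPKM in wild type, so that Sp8 null embryo 2 and wild-type embryo 2 nearly met. Its log2 fold change was -0.39 (SE 0.13; limma adjusted p = 0.110). The ratio of Krt5 to Krt14 was 5.90, 4.16 and 5.58 in Sp8 null and 4.68, 4.80 and 4.58 in wild type, groups that overlapped. Trp63, a transcription factor that drives both genes in epidermis, averaged 125 FPKM in nulls against 131 FPKM in wild type (log2 fold change -0.08, limma adjusted p = 0.682).

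The third basal keratin, Krt15, a type I keratin of basal cells, was spread widely. Its FPKM was 8.95, 9.99 and 6.19 in Sp8 null and 9.24, 2.58 and 2.85 in wild type. Wild-type embryo 1 stood with the null libraries and apart from the other wild-type libraries. It was also the library with the highest erythroid sum and the only wild-type library whose sample name starts with 4. The meaning of that number was not stated, and the part of blood content in the Krt15 values was not tested. Over all 6 libraries the log2 fold change was 0.83 (SE 0.39, 95% interval -0.08 to 1.73; limma adjusted p = 0.248). Without wild-type embryo 1 it was 1.31 (limma adjusted p = 0.0157), so the outcome for Krt15 rested on 1 library. Within the 4 libraries whose sample names start with 5 the log2 fold change was 1.26 (limma adjusted p = 0.0628). With the leading number in the model it was 0.83 (SE 0.29, limma adjusted p = 0.160).

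Among the simple keratins no member passed the test, although each had a higher mean in Sp8 null. Krt8 (ENSMUSG00000049382; chromosome 15, 101996698 to 102004482, minus strand), the type II member of the pair, was at 23.8, 20.2 and 27.3 FPKM in Sp8 null and at 18.6, 20.3 and 15.2 FPKM in wild type. Sp8 null embryo 2 lay just under wild-type embryo 2, so the groups touched. The log2 fold change was 0.38 (SE 0.14, 95% interval 0.06 to 0.70; limma adjusted p = 0.146). Its type I partner Krt18 (ENSMUSG00000023043), whose gene lies next to Krt8, was at 35.9, 25.8 and 37.8 FPKM in Sp8 null and at 27.4, 33.8 and 30.1 FPKM in wild type. All wild-type values of Krt18 lay inside the range of the null values (log2 fold change 0.11, 95% interval -0.24 to 0.45, limma adjusted p = 0.710). Krt19, the smallest keratin, which lacks a tail domain, was at 35.8, 24.3 and 30.3 FPKM against 27.98, 25.3 and 19.2 FPKM (log2 fold change 0.30, 95% interval -0.10 to 0.71; limma adjusted p = 0.332). In Sp8 null, embryo 2 was the lowest library for each of Krt8, Krt18 and Krt19. It was also the library with the highest mesenchymal sum and the lowest epithelial sum. The same embryo was the highest null library for Krt7, Krt9, Krt14 and Krt15, and the part of sample composition was not tested. Without Sp8 null embryo 2 the log2 fold changes of Krt8, Krt18 and Krt19 were 0.48, 0.27 and 0.45, and none was called (limma adjusted p = 0.118, 0.225 and 0.209). Other single removals lowered them. Krt8 was at 0.27 and Krt19 at 0.155 without wild-type embryo 3, and Krt18 was at 0.003 without Sp8 null embryo 3. Krt7 was at 7.16, 8.50 and 8.37 FPKM in Sp8 null and at 6.39, 8.60 and 8.29 FPKM in wild type (log2 fold change 0.05, 95% interval -0.24 to 0.34; limma adjusted p = 0.853), and its direction turned without wild-type embryo 1 (-0.07).

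**Figure D3:**
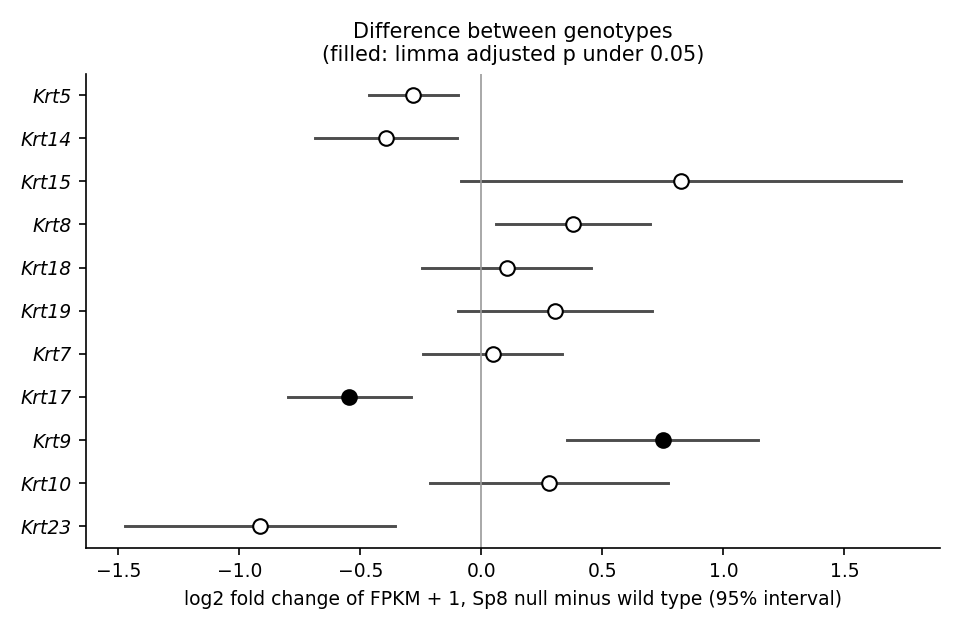
Log2 fold change of FPKM + 1, Sp8 null minus wild type (x axis), with its 95% interval from limma, for the 11 keratins that passed the filter, with filled points for an adjusted p under 0.05. Krt17 at -0.54 and Krt9 at 0.75 are filled.

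Krt17 (ENSMUSG00000035557; chromosome 11, 100256217 to 100261029, minus strand), the type I keratin of periderm and appendages, averaged 0.872 ± 0.0898 FPKM in nulls against 1.73 ± 0.122 FPKM in wild type (SD, n = 3) and so fell. Single libraries were at 0.944, 0.771 and 0.899 FPKM in Sp8 null and at 1.80, 1.80 and 1.59 FPKM in wild type. Groups were well apart and each was tight. The log2 fold change on the log2(FPKM + 1) scale was -0.54 (SE 0.11; limma adjusted p = 0.0298), and the ratio of mean FPKM, wild type over Sp8 null, was 1.99. The call did not outlast the removal of any 1 of the 6 libraries (limma adjusted p = 0.0569 to 0.112), fits that have fewer samples, while the log2 fold change stayed between -0.58 and -0.51 in them. Of the possible type II filament partners of Krt17, Krt6a reached at most 0.0945 FPKM and Krt6b was listed at 0 in all 6 libraries. Krt5, Krt8 and Krt7 were above Krt17 in every library. The stress keratin Krt16 was at 0.0678 FPKM or less. Of the 6 periderm markers other than keratins 1 was called, Arhgap29, which rose (log2 fold change 0.55, limma adjusted p = 0.00981), beside a background of 1.68% higher. Rhov (-0.53, limma adjusted p = 0.0744), Gjb5 (-0.44, 0.113) and Grhl3, a transcription factor of the surface layer (0.06, 0.768), did not pass.

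Krt9 (ENSMUSG00000051617; chromosome 11, 100186781 to 100193246, minus strand), a type I keratin best known from the suprabasal layers of palm and sole skin, averaged 10.96 ± 1.56 FPKM in nulls against 6.19 ± 1.60 FPKM in wild type (SD, n = 3) and so rose. It was at 9.80, 12.7 and 10.4 FPKM in Sp8 null and at 7.96, 4.84 and 5.77 FPKM in wild type, with wild-type embryo 1 nearest to the null libraries. The log2 fold change was 0.75 (SE 0.17; limma adjusted p = 0.0428), and mean FPKM in Sp8 null was 1.77 times that in wild type. The call was lost without any library but wild-type embryo 1 (limma adjusted p = 0.0799 to 0.130 in those 5 fits and 0.0185 without wild-type embryo 1), with log2 fold changes from 0.61 to 0.92. Both calls were also lost with no filter, which raised the genes tested to 27766 (limma adjusted p = 0.0965 for Krt17 and 0.141 for Krt9). Within the 4 libraries whose sample names start with 5, a number whose meaning was not stated, the log2 fold change was 0.99 (limma adjusted p = 0.0427), while that of Krt17 was -0.55 (0.154). With this number in the model the limma adjusted p was 0.0632 for Krt9 and 0.0519 for Krt17. The names that start with 4 mark 1 library of each genotype and allow no test. Relative to Krt14, its neighbour in the genome, Krt9 was at 0.884, 0.835 and 0.836 in Sp8 null and at 0.430, 0.316 and 0.325 in wild type, a ratio chosen after the values were seen. Other keratins of differentiated layers were low or at 0: Krt10 was at 1.60, 1.38 and 1.43 FPKM in Sp8 null and at 1.17, 1.64 and 0.466 FPKM in wild type (log2 fold change 0.28, limma adjusted p = 0.470). Krt10 was at 0.044 on the log2 scale without wild-type embryo 3 and at 0.47 without wild-type embryo 2. Its partner Krt1 lay between 0.262 and 0.396 FPKM with overlapping groups, Krt77 reached at most 0.00856 FPKM and Krt2 was listed at 0 throughout.

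Krt23, a type I keratin of several epithelia, had the largest fall on the log2 scale of the 11 and did not pass the test. It was at 0.732, 0.288 and 1.29 FPKM in Sp8 null and at 2.48, 2.84 and 1.56 FPKM in wild type. Groups were apart but each spread widely, with Sp8 null embryo 3 close to wild-type embryo 3. The log2 fold change was -0.91 (SE 0.24, 95% interval -1.47 to -0.35, limma adjusted p = 0.0652). Without Sp8 null embryo 3, the null library nearest to wild type, it was -1.12 (limma adjusted p = 0.0443). Without any other single library it was between -1.09 and -0.70 and not called (limma adjusted p = 0.0644 to 0.204).

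Below the filter, 6 keratins reached 0.1 FPKM in at least 1 library. Krt222, a keratin-like gene at the end of the type I cluster, was at 0.708, 0.527 and 0.894 FPKM in Sp8 null and at 0.570, 0.666 and 0.656 FPKM in wild type. Krt20, the keratin of gut epithelium and Merkel cells, was at 0.611, 0.389 and 0.425 FPKM in Sp8 null and at 0.325, 0.470 and 0.0917 FPKM in wild type. Krt90 was at 0, 0.0595 and 0.0491 FPKM in Sp8 null and at 0.130, 0.146 and 0.126 FPKM in wild type, the one of these 6 whose groups did not overlap. Krt1 is given above, and Krt80 and Krt42 ranged from 0.104 to 0.331 and from 0.0266 to 0.707 FPKM with overlapping groups. These genes were under the filter and are described by their values. In the fit with no filter, limma called 0 of the 24 keratins that this fit added, and 1 of them, Krt90, had an unadjusted p under 0.05 (log2 fold change -0.13; limma adjusted p = 0.120). The other 18 keratins above 0 stayed under 0.1 FPKM. None of the 15 hair shaft keratins and none of the 8 keratins of the hair follicle's inner root sheath and companion layer reached 0.1 FPKM, and of the 4 mucosal keratins, Krt4, Krt13 and Krt76 were listed at 0 in every library.

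All 53 keratins lay in 2 clusters, 27 on chromosome 11 and 26 on chromosome 15. Of those that passed the filter, 7 were on chromosome 11 and 4 on chromosome 15, where Krt18, though type I, sits beside Krt8. On chromosome 11, tested genes other than Krt10 and Krt23 stood near the end of the cluster. The order of keratins there was Krt15, Krt19, Krt9, Krt14, Krt16, Krt17 and Krt42, of which Krt16 and Krt42 were not tested. All were on the minus strand with no other protein-coding gene between them. The first 3 of these had a higher mean in Sp8 null (0.83, 0.30 and 0.75 on the log2 scale), and the next tested genes, Krt14 and Krt17, a lower one (-0.39 and -0.54). Krt9 and Krt14, which lie 9915 bases apart, had opposite signs. This order was noticed in the values, and the region was not tested.

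**Figure D4:**
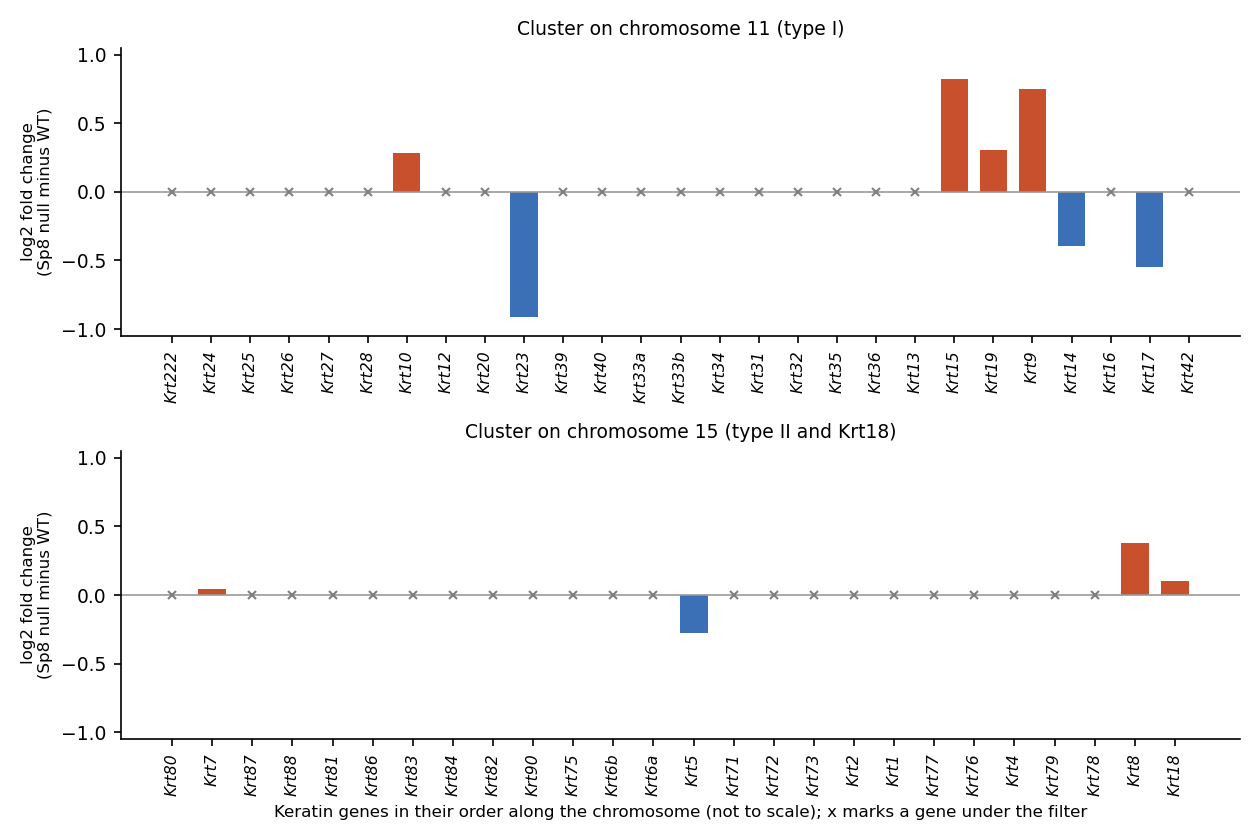
Log2 fold change, Sp8 null minus wild type (y axis), of keratin genes in their order along chromosomes 11 and 15 (x axis, not to scale), with crosses for genes under the filter. Krt15, Krt19 and Krt9 are above 0 and Krt14 and Krt17 below it.

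Upstream sequence is shown for the 3 members whose groups did not overlap and whose window in the RefSeq promoter table ended within 20 bases of the annotated gene start, since Sp factors bind GC-rich and GT-rich boxes. RefSeq sequence was matched by symbol for 36 of the 53 keratins. The 250 bases before the start are printed 5′ to 3′ on the gene's strand (GRCm38.p6), and capitals mark GGGCGG (GC box), GGGTGG (GT box), TATAAA or TAATTA on either strand, which were counted separately and may share letters at their ends. Krt9 is at chr11:100193247-100193496, minus strand, Krt23 at chr11:99493121-99493370, minus strand and Krt5 at chr15:101712906-101713155, minus strand.
Krt9: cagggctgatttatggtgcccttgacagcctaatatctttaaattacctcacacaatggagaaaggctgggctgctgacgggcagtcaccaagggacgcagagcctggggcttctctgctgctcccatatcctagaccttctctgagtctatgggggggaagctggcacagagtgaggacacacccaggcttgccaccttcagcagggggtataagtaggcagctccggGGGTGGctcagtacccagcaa
Krt23: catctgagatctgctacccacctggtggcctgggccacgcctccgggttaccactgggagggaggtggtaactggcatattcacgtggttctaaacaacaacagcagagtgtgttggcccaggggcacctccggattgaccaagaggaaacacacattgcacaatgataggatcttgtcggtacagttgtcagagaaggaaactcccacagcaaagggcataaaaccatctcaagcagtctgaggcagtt
Krt5: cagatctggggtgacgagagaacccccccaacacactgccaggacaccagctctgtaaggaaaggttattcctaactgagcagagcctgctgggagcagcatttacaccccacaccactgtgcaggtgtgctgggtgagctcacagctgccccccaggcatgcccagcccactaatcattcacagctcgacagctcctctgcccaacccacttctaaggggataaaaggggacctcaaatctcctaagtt
Krt9 held 1 GT box, close to the start, and the windows of Krt23 and Krt5 held none of the 4 motifs. Of the 8 tested keratins with a window, 4 held GGGTGG. The others with it were Krt14, which was lower in Sp8 null, and Krt8 and Krt10, whose groups overlapped. The windows of Krt14 and Krt8 did not end within 20 bases of the annotated start. Among 32817 windows of the same length, 32.7% held GGGCGG, 28.1% held GGGTGG, 12.4% held TATAAA and 4.85% held TAATTA. A match is a description of letters and not evidence of binding.

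Genes that work with keratins were read from lists. Of 21 genes for desmosomes, hemidesmosomes and the linkers that tie filaments to them, 16 were tested and 3 were called, all lower, against 5.15% of all tested genes. Of these 16, Col17a1 and Itgb4 passed the filter through the wild-type libraries alone, so they had to differ to be tested, and the count is a description of those that passed. They were Col17a1, a hemidesmosome collagen, from 2.09 ± 0.178 to 0.616 ± 0.00903 FPKM (limma adjusted p = 0.00346), Itga6, the laminin-binding integrin subunit, from 95.6 ± 8.001 to 60.5 ± 8.61 FPKM (limma adjusted p = 0.0163), and Pkp1, a desmosome plaque protein, from 3.11 ± 0.261 to 1.52 ± 0.166 FPKM (limma adjusted p = 0.0113). Itgb4, the hemidesmosome partner of Itga6, was at -0.60 (limma adjusted p = 0.0505), and desmoplakin, Dsp, which anchors keratin to desmosomes, at -0.23 (0.317). Of 13 other intermediate filament genes, 5 were tested and 1 was called, Nes, which encodes nestin, at -0.46 (limma adjusted p = 0.0185). Nefl, a neurofilament gene among these 5, also passed the filter through wild type alone. Vim, the vimentin gene of mesenchyme, averaged 35.6 FPKM in nulls against 37.1 FPKM in wild type (log2 fold change -0.06, limma adjusted p = 0.788). Of 18 epidermal regulators, 14 were tested, of which Tfap2a (0.52, limma adjusted p = 0.0163) and Tfap2b (0.80, 0.00917), transcription factors of early ectoderm, rose and Msx2 (-1.72, 1.62e-05), a homeobox factor of the ridge, fell. Among the 12 surface epithelium markers the cell adhesion genes Epcam (-0.53, limma adjusted p = 0.0313) and Cldn7 (-0.57, 0.0266) fell and Tfap2a rose. Over all tested genes 1.68% were called higher and 5.15% lower. Several of these calls depended on single libraries. In limma, Itga6 was not called without Sp8 null embryo 1 or wild-type embryo 2 (adjusted p = 0.0634 and 0.0675), and Tfap2a not without wild-type embryo 1 or 3 (0.0582 and 0.0511). Nes was not called without any library but wild-type embryo 1 (limma adjusted p = 0.0508 to 0.0956), and Epcam not without any but Sp8 null embryo 3 (0.0638 to 0.121). Cldn7 was not called without Sp8 null embryo 3 or any 1 wild-type embryo (limma adjusted p = 0.0545 to 0.0860). Col17a1, Pkp1, Tfap2b, Msx2 and Arhgap29 stayed called in all 6 fits that left out a library. With no filter the calls of Pkp1, Tfap2b, Tfap2a, Itga6, Cldn7 and Epcam were lost (limma adjusted p = 0.0564, 0.0533, 0.0613, 0.0733, 0.0899 and 0.103). In the 4 libraries whose names start with 5, those of Cldn7, Arhgap29, Pkp1, Nes, Tfap2a, Itga6 and Epcam were lost (limma adjusted p = 0.0827, 0.0897, 0.0998, 0.103, 0.128, 0.129 and 0.165). Cldn7 was also not called under median-of-ratios or upper-quartile scaling (limma adjusted p = 0.0530 and 0.0551), nor Epcam with the leading number in the model (0.0554). Among markers of mesenchyme, erythroid cells and endothelium none was called by limma. The smallest p-values in each were those of Pdgfra in mesenchyme (log2 fold change -1.15, limma adjusted p = 0.120), Alas2 in erythroid cells (0.30, 0.636) and Egfl7 in endothelium (0.15, 0.595). Without Sp8 null embryo 2, Pdgfra was at -1.65 (limma adjusted p = 0.000587). The 8 tested mesenchyme markers had a median log2 fold change of 0.27, with 4 means higher and 4 lower in Sp8 null. The higher ones were Col3a1 (1.45, limma adjusted p = 0.163), Prrx1 (1.15, 0.316), Twist1 (0.90, 0.257) and Tbx5 (0.67, 0.563), each highest in Sp8 null embryo 2. For Col3a1 every null library was above every wild-type library.

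In the authors' deposited table, whose test was not described, 6 of the 11 tested keratins had a p-value under 0.05, against 31.3% of all tested genes. Those 6 in the authors' deposited table were the same 6 that reached an unadjusted limma p under 0.05. Krt90 was the 1 untested keratin with a p-value under 0.05 in the authors' deposited table. Fold changes in the authors' deposited table were 1.74 for Krt9, 1.33 for Krt8, -1.18 for Krt5, -1.29 for Krt14, -1.51 for Krt23 and -1.69 for Krt17. For Krt8 the authors' deposited table gave a p-value of 7.4e-05, while FPKM gave an unadjusted p of 0.0253 in limma. For Krt15 the authors' deposited table listed means of 297 in wild type and 528 in Sp8 null but a fold change of 1.25 with a p-value of 0.166. Direction was the same as in FPKM for 10 of the 11, the exception in the authors' deposited table being Krt7 (-1.02).

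Some keratin reads cannot be assigned with certainty. In Krt8, 29.7% of the 50-base stretches of its longest transcript also occur in another gene, mostly the processed pseudogene Krt8-ps, which was listed at 0.280 to 0.533 FPKM. The share was 14.4% for Krt14, mostly with Krt16, 12.2% for Krt5, mostly with Krt6a, and 3.995% for Krt17, and 0% for Krt9, Krt19 and Krt23. Exons of Krt5, Krt7, Krt8 and Krt10 overlap a gene on the other strand by 129, 77, 101 and 146 bases, and the use of strand was not stated. The gene that overlaps Krt5, Gm44323, annotated as a miRNA gene, was at 158.6, 132.8 and 114.1 FPKM in Sp8 null and at 159.0, 164.6 and 159.1 FPKM in wild type, above Krt5 in every library and, like it, with every null library below every wild-type library. The antisense gene that overlaps Krt10, Gm11940, was at 4.25, 4.12 and 3.87 FPKM in Sp8 null and at 2.99, 2.27 and 3.25 FPKM in wild type, above Krt10 in every library. Their part in the Krt5 and Krt10 values was not tested.

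**Figure D5:**
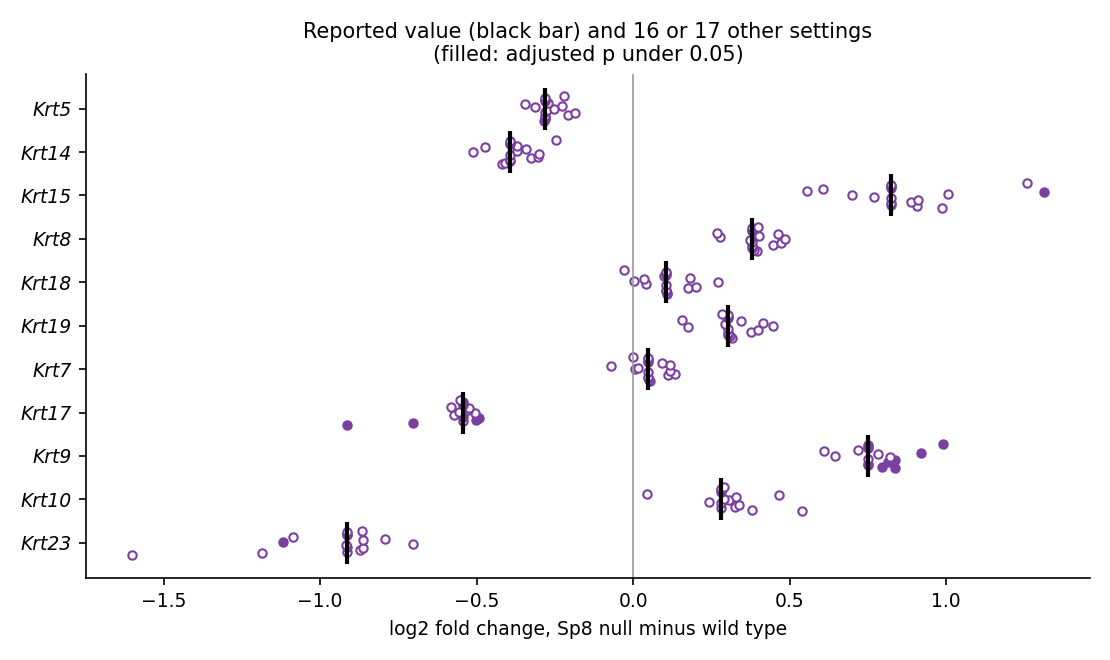
Log2 fold change, Sp8 null minus wild type (x axis), of the 11 tested keratins as reported (black bars) and under 16 or 17 other settings (circles, filled for an adjusted p under 0.05). Krt17 and Krt9 keep their direction in all, and the filled circles of Krt15 and Krt23 are single settings.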

How the data were processed

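RNA-seq of forelimb ectoderm from 3 Sp8 null and 3 wild-type embryos was used, grouped by sample title. The authors deposited FPKM per gene and library, with a status word for each estimate. Per the submitters' processing notes, FastQC, SAMtools, TopHat2, Cufflinks and DESeq2 and the build GRCm38 were used, with no roles given. Per the file headers, genes follow Ensembl build 87. The deposited group means are a normalized signal, the deposited fold change is a signed score, and the deposited p-value has no stated test or adjustment. These columns only describe the authors' comparison. Depth is known in relative terms, from the worth of 1 read in low genes: 0.842 to 1.03 of wild-type embryo 1. Counts were not recovered, so no counting interval is given.

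FPKM was analysed as log2(FPKM + 1), which understates changes of low genes, for the 12133 genes at 1 FPKM or more in at least 3 libraries. A model with genotype alone was fitted with limma 3.58.1 (R 4.3.3, trend), with two-sided p-values adjusted by Benjamini-Hochberg over all tested genes, after the code had been tested on simulated data. Of the keratins, all 53 matched GENCODE M21 (GRCm38), which gave coordinates and types. No keratin estimate had the status FAIL. No identical libraries were found. Named genes are Sp8, every tested keratin, untested keratins at 0.1 FPKM or more, and called or smallest-p members of the other lists; further genes were chosen after their values were seen. Members and lists were chosen with earlier results of these data known.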

Additional observations from a re-analysis of the deposited data

How the results depend on the processing

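The number of called genes, 829, was 342 with no filter on low values, 545 with the first number of the sample names (4 or 5) in the model, and 251 in the 4 libraries with the number 5, an alternative chosen after seeing the data; with 1 replicate left out it ranged from 316 to 642. The 2 called keratins became 0 with no filter or with that number in the model, and 1 each when a 5 FPKM mean was required, under which Krt17 is not tested, with no mean-variance trend and in the libraries with the number 5; with 1 replicate left out there were 0 to 2. With the replicate number as a block 328 genes and 0 keratins were called, but the numbers did not pair the embryos (correlations of deviations -0.16, -0.14 and -0.07); among the list genes Arhgap29, Cldn7, Epcam, Itga6, Nes and Tfap2a were not called under it (limma adjusted p = 0.0565 to 0.0988). Of 184 values of single keratins, 160 kept direction and side of the threshold, 19 lost the call, 2 gained it (Krt15 and Krt23, above) and 3 changed direction: Krt7 without wild-type embryo 1 (values without 1 replicate from -0.0713 to 0.118), and Krt7 (-0.0015) and Krt18 (-0.0291) in the libraries with the number 5, where the endothelial Egfl7 was also at -0.0022. Sp8 kept its call throughout, from -3.68 to -2.58. With 3 embryos a group and the lowest keratins under 1 FPKM, small changes are not detectable. Causes were not tested.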
